A study of Mus musculus with 2 samples.

Results

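Tcf1 peaks with their summit inside an exon, away from any transcription start site, were taken from the Tcf1 ChIP-seq peak list of naïve CD8+ T cells. A peak was counted when its summit, the base with the most WT fragments, lay more than 1 kb from every annotated start site and inside a coding exon or an untranslated region (UTR) of a protein-coding transcript, on the mouse genome build mm9 with the GENCODE vM1 annotation. Of the 21764 peaks on the 19 numbered chromosomes, 413 (1.90%) met this rule, which was 3.12% of the 13219 peaks away from start sites. The summit fell in a coding exon at 215 of them, in a 3′ UTR at 189 and in a 5′ UTR at 9. A base that is coding in one transcript and untranslated in another was counted as coding, and 42 of the 413 summits (10.2%) were also intronic in another protein-coding transcript.

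The list compares 1 WT library with 1 Tcf1-deficient library, both from mouse spleen and both immunoprecipitated with the same anti-Tcf1 antiserum, which was raised in rabbits against the full-length protein. Both labels give the sorted cells as GFP+ TCRbeta+ CD62Lhi CD44lo-med CD8+. The design text puts both genotypes on hCD2-Cre, a Cre most active in mature T cells, with a Rosa26-lsl-GFP reporter, and the genotype field of the control reads Tcf1-/-Lef1-/-, whereas its title says Tcf1-deficient and the study's methods name Cd4-Cre mice with Tcf7 fl/fl alone. Which of these the control cells were cannot be told apart from the files, and neither can the loss of Lef1 from the loss of Tcf1 in them. The mice of the study were young adults on a C57BL/6 background. With 1 library per genotype there was no replicate check, peaks of 1 list are not replicates of a genotype, and the intervals and tests given here treat peaks as independent and cover counting error only.

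Tcf1, encoded by Tcf7, is an HMG-box protein that binds the Tcf/Lef motif in the minor groove, bends DNA and, with its relative Lef1, maintains the identity of CD8+ T cells. Transcription factors are best known at promoters and at enhancers in introns and between genes. An exon can hold a binding site as well, and a site in a coding exon has to be written in bases that also spell codons. A 3′ UTR lies after the stop codon, is usually part of the last exon, and carries no codons.

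A 7-base Tcf/Lef core, ATCAAAG on either strand, stood no more than 100 bp from the summit at 68 of the 413 exonic peaks (16.5%). The windows of 30 bases below show such cores in their exons, at the 9 coding exon peaks of largest fold enrichment that carry one and at 3 of the 3′ UTR peaks with one. They are reference sequence of mm9, written in the sense of the gene, with the core in capitals (ATCAAAG on the sense strand, CTTTGAT where the core lies on the antisense strand).
Gtf2i, chr5:134758673-134758702, minus strand: agttgtggccccATCAAAGtgaaaactgaa
Wdr63, chr3:145726285-145726314, minus strand: cattgacattccCTTTGATgtgccctcgac
Kidins220, chr12:25698200-25698229, plus strand: gaggcagatgtcCTTTGATctcacaaagct
Ypel3, chr7:133923595-133923624, plus strand: ctcaaccacatgATCAAAGacaacggctgg
Tab1, chr15:79980202-79980231, plus strand: gtctcttcaggcCTTTGATgtggtggagag
Dnahc17, chr11:117947419-117947448, minus strand: agcctggggttgCTTTGATgagtttaaccg
Gnat1, chr9:107578360-107578389, minus strand: gccggcaactacATCAAAGtgcagttcctg
Zfp219, chr14:52628421-52628450, minus strand: gcacaaggcctcCTTTGATcatgcgtgccc
Ms4a6b, chr19:11594949-11594978, plus strand: ctaaaggctgagATCAAAGtgatggcggta
Cst7 (3′ UTR), chr2:150404486-150404515, plus strand: acgcagagagtcCTTTGATgacattactgg
Ube2d3 (3′ UTR), chr3:135128582-135128611, plus strand: ctcagctgtcacATCAAAGgaagcagcatt
Xpo7 (3′ UTR), chr14:71059172-71059201, minus strand: gcagcggctgaaATCAAAGcctgcgtctgc

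Fold enrichment, the WT pileup at the summit plus 1 over the level expected from the control library plus 1, ranged from 2.05 to 41.8 with a median of 5.92. A fold enrichment of at least 4 with p under 1e-05 and q under 0.05, the study's limit for high confidence, was passed by 359 of the 413 (86.9%), beside 86.2% of all peaks on the numbered chromosomes, a share near that background. All of the other 54 fell under the fold minimum. For 127 of the 413 the WT pileup lay within 1 Poisson SD of the pileup the fold minimum needs, so their side of the limit rests on few fragments. The control level at the summit was at its genome-wide floor of 5.42 fragments at 352 (85.2%) and above 10 fragments at 6, and 28 peaks (6.78%) reached a fold enrichment of 20 or more. This level was computed back from pileup and fold enrichment and is not a count of control fragments. At the floor, how far the control library itself lay below it cannot be seen.

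Coding exon peaks were led by Gtf2i, which encodes the general transcription factor TFII-I. At its summit 267 WT fragments (95% Poisson interval 236 to 301) stood over a control level of 5.42, a fold enrichment of 41.8. The peak, chr5:134757843-134759026, spanned 1184 bp around exon 8 of 35, an exon of 44 bp, so that 3.72% of it was exonic. The summit lay 16 bp from a splice site and inside the core printed above, 3 bp from its middle base. Distances from summit to core are given to the middle base of the core throughout.

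Behind it came Sult2b1, a cholesterol sulfotransferase, with 247 WT fragments over 5.42 and a fold enrichment of 38.6. Col6a6, a collagen VI chain, followed at 230 over 5.42, a fold enrichment of 36.0 in its last exon. Pigl, an enzyme of GPI anchor synthesis, had 219 over 5.42 (fold enrichment 34.3). None of these 3 had the exact Tcf/Lef core near the summit, and all 3 control levels were at the floor.

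The kinase gene Ysk4 had 211 WT fragments (fold enrichment 33.0), with a Runx core (TGTGGTT) and an ETS core (CGGAAGT) within 100 bp of the summit. Pmel, which encodes the fibril protein of melanosomes, had 208 fragments (fold enrichment 32.6) and 3 copies of the Runx core. Zfp51, a zinc finger gene, had 188 (fold enrichment 29.4) in its 2220-bp last exon. Zfp51 belongs to a multigene family, and how reads that match several places were treated in this experiment is not given in the sources used here, so its value is uncertain. Wdr63, a dynein intermediate chain gene, had 171 (fold enrichment 26.8), with the middle of the Tcf/Lef core 5 bp from the summit. Rrp12, which acts in ribosomal RNA processing, and Tnfrsf10b, a death receptor for TRAIL, had 167 and 155 fragments at fold enrichments of 26.2 and 24.3. Several of these genes are known from melanocytes, cilia or connective tissue and not from T cells, and the list measures binding, not their expression.

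The 3′ UTR peaks were led by Vamp1, a SNARE of vesicle fusion, with 237 WT fragments (95% Poisson interval 208 to 269) over a control level at the floor of 5.42, a fold enrichment of 37.1. Its summit lay 10 bp before the annotated end of the transcript, and an ETS core was within 100 bp. Mical3, an actin-regulating monooxygenase, had 192 fragments (fold enrichment 30.1). Bysl, a ribosome assembly gene, had the largest pileup of the 10 leading 3′ UTR peaks, 250 fragments over a control level of 7.35 (fold enrichment 30), and the nearest start site to it, 7604 bp away, was that of Ccnd3, which encodes the G1 cyclin D3. All 3 of these peaks lay in the last exon of the gene.

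Cd3d, which encodes the CD3 delta chain of the T-cell receptor complex, had 219 WT fragments over 6.69 in its 3′ UTR (fold enrichment 28.6), in a peak of 1765 bp, chr9:44793645-44795409, of which 54.2% was exonic.

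Further leading 3′ UTR peaks were in Limk2 (176 fragments, fold enrichment 27.6), a kinase of cofilin, and Lpxn (173, 27.1), the focal adhesion adaptor leupaxin. Lpxn had both an ETS and a Runx core within 100 bp. Tmem194b (166, 26.0) had 2 copies of the Runx core. Abhd2 (161, 25.1), a lipid hydrolase, and Bend4 (160, 25.1) had none of the 3 cores. The 10 leading peaks of each class thus covered a like range of pileup, 155 to 267 in coding exons and 160 to 250 in 3′ UTRs, each far above its control level.

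**Figure D1:**
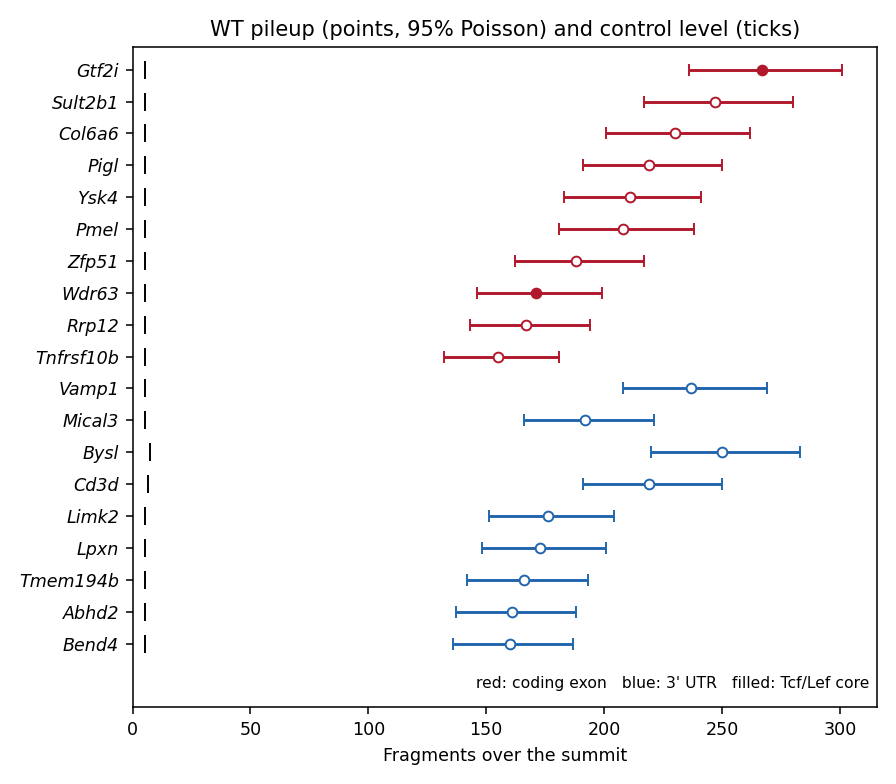
WT pileup at the summit (points, in fragments, with 95% Poisson intervals) and the control level (black ticks, in fragments) for 10 coding exon peaks (red) and 9 3′ UTR peaks (blue) among those of largest fold enrichment, with filled points where the exact Tcf/Lef core lies within 100 bp. WT pileups run from 155 to 267. Control levels, computed back from the fold enrichment, lie between the floor of 5.42 and 7.35. Of the 19 peaks, 2 (Gtf2i and Wdr63) carry the core.

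Of the 9 peaks in 5′ UTRs, those of largest fold enrichment were in Zfp821 (90 fragments, fold enrichment 14.2), Pld3, a phospholipase D family gene (74, 11.7), and Kbtbd11 (74, 10.7). All 9 passed the fold minimum, and 0 of 9 had the Tcf/Lef core, a count that allows a share of up to 33.3%. No test was run on this class of 9.

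The 413 peaks lay in 380 genes. A single exonic peak was found in 351 genes, 2 in 26 genes, 3 in 2 genes and 4 in 1 gene. The gene with 4 was Btg1, an antiproliferative gene of lymphocytes, with pileups of 22 in its coding sequence and 40, 39 and 21 in its 3′ UTR (fold enrichments 3.58, 6.39, 6.23 and 3.43), so none was among the strong peaks and 2 were under the fold minimum. Arl4c, a small GTPase, had 3 in its 3′ UTR with pileups of 40, 39 and 29. Muc4, a mucin, had 3 in coding exons with pileups of 70, 34 and 28, and at the last 2 of these the control level was 10 and 8.69 fragments, against 5.42 at the first. Among the 26 genes with 2, Pigl (fold enrichments 34.3 and 9.19) and Bysl (30 and 4.99) had the strongest.

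The largest control level by far was at Lars2. In the 3′ UTR of Lars2, the mitochondrial leucyl-tRNA synthetase, 1034 WT fragments, the largest pileup of all 413, stood over a control level of 165 (fold enrichment 6.23). The next were much lower. The 3′ UTR of the zinc transporter Slc30a4 had 49 over 23.4 (fold enrichment 2.05), and that of Eef2, a translation elongation factor, 57 over 22.1 (2.51). The high signal in cells lacking Tcf1 moved with the high WT signal at Lars2, and its part in that peak was not tested.

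Near the distance limit, the members closest to a start site were in Tank (1011 bp), with 32 WT fragments, and in Sit1 and Cyp4f13 (both 1023 bp), with 29 and 89. The nearest exonic summits left out lay 991 and 995 bp from a start site and had 23 and 34. Near the fold minimum, Kif5a (4.03) and Zfp703 (4.05) were just inside, and Hist2h2bb (3.92) and Epm2aip1 (3.90) just outside.

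Coding exons and introns differ greatly in length, so summits were set per Mb of sequence of each class more than 1 kb from start sites. Coding exons held 8.49 summits per Mb (95% Poisson interval 7.39 to 9.70; 215 summits in 25.3 Mb) and 3′ UTRs held 8.10 (6.99 to 9.34; 189 in 23.3 Mb). The 9 summits in 5′ UTRs, in 0.521 Mb, gave 17.3 per Mb (7.89 to 32.8), the largest density of these classes and the least precise. They lay a median of 2.11 kb from a start site, and introns within 5 kb of one held 12.1 per Mb, inside that interval. Introns of protein-coding genes held 7.70 (7.51 to 7.89; 6304 in 819 Mb), and sequence between genes held 4.44 (4.33 to 4.55; 6064 in 1366 Mb). The density in coding exons was 1.10 times that in introns (95% interval 0.958 to 1.26, adjusted p = 0.298) and in 3′ UTRs 1.05 times (0.906 to 1.22, adjusted p = 0.641), by two-sided exact binomial tests adjusted by Benjamini-Hochberg over 19 tests. Neither ratio passed the threshold, and the intervals leave room for a density up to 1.26 times that of introns.

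Exonic peaks lay closer to start sites than intron peaks did, with medians of 5.45 kb for coding exon peaks, 7.60 kb for 3′ UTR peaks and 10.6 kb for intron peaks. Within 5 kb of a start site the density was 11.4 per Mb in coding exons, 10.6 in 3′ UTRs and 12.1 in introns. From 5 to 20 kb it was 7.79, 7.12 and 9.39, and beyond 20 kb 5.35, 6.71 and 4.85. The ratio to introns therefore fell under 1 in both nearer ranges (coding exons 0.943 and 0.830, 3′ UTRs 0.875 and 0.758) and over 1 only in the farthest (1.10 and 1.38), and none of these 6 ratios passed the threshold after adjustment. The density of peaks fell with distance from start sites in all 3 classes.

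**Figure D2:**
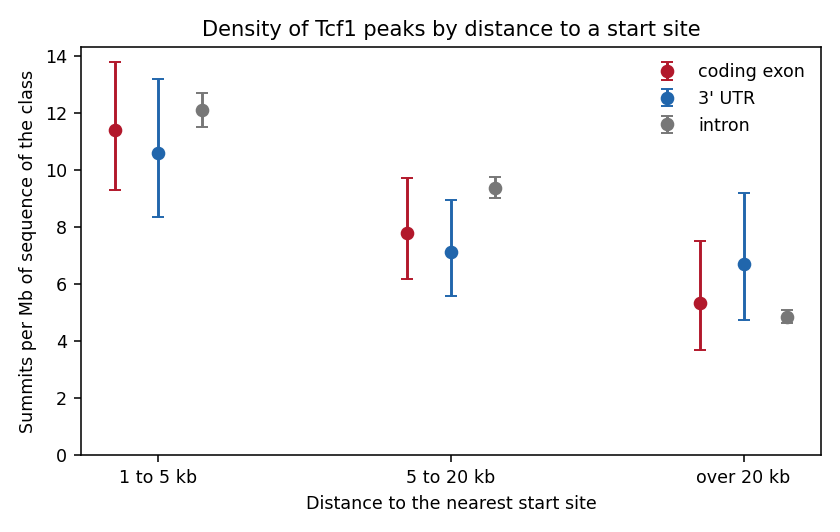
Summits per Mb of sequence of each class (vertical axis, points with 95% Poisson intervals) in 3 ranges of distance to the nearest start site, for coding exons, 3′ UTRs and introns. Values fall from 11.4, 10.6 and 12.1 per Mb nearest to start sites to 5.35, 6.71 and 4.85 beyond 20 kb.

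The strength of the peaks did not differ past the threshold between exons and introns. The median fold enrichment was 5.92 in coding exons (95% interval 5.45 to 6.54), 5.98 in 3′ UTRs (5.30 to 6.39) and 6.39 in introns, with median pileups of 39, 39 and 42 fragments. At or above the intron median were 99 of 215 coding exon peaks (46.0%) and 85 of 189 3′ UTR peaks (45.0%), against 51.3% of intron peaks (odds ratios 0.810 and 0.776, 95% intervals 0.617 to 1.06 and 0.580 to 1.04, two-sided Fisher's exact tests, adjusted p = 0.298 and 0.261). Among high-confidence peaks alone the second odds ratio was 0.627 and passed the threshold (Fisher's exact test, adjusted p = 0.0237), an adjustment that does not cover the choice of subset. At the top of the range, a fold enrichment of 20 was reached by 6.51% of coding exon peaks and 7.41% of 3′ UTR peaks, beside 9.45% of intron peaks, which reached 112.

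**Figure D3:**
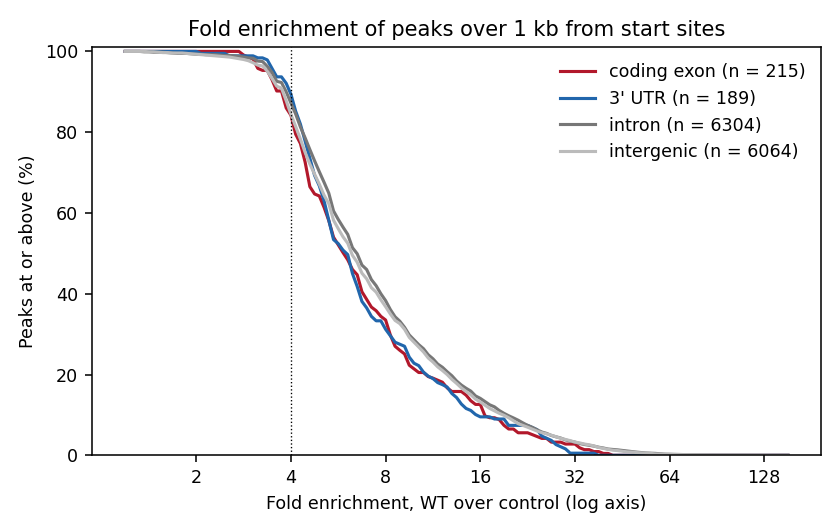
Share of peaks (vertical axis, percent) at or above each fold enrichment (horizontal axis, log scale) for peaks more than 1 kb from start sites, by the position of the summit, with the fold minimum of 4 as a dotted line. The 215 coding exon peaks and 189 3′ UTR peaks have medians of 5.92 and 5.98, beside 6.39 for intron peaks.

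Peaks were also of like width, with medians of 390 bp in coding exons, 382 bp in 3′ UTRs and 420 bp in introns, and no difference passed the threshold (adjusted p = 0.261 and 0.609, Fisher's exact tests on counts at or above the intron median). GC content did differ. Its median within 100 bp of the summit was 53.2% in coding exons, 49.8% in 3′ UTRs and 48.3% in introns, and 166 of 215 coding exon peaks (77.2%) were at or above the intron median against 53.6% of intron peaks (odds ratio 2.93, 95% interval 2.12 to 4.05, Fisher's exact test, adjusted p = 4.4e-11). For 3′ UTRs the odds ratio was 1.41 (Fisher's exact test, adjusted p = 0.0996). Coding sequence is richer in GC than introns in mammals, and how much of the difference that gives was not tested.

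The exon itself was often smaller than the peak that was assigned to it. In coding exons, 149 of 215 summits lay in internal exons, 58 in last exons, 4 in first exons and 4 in genes of a single exon. The median exon was 231 bp long, 126 peaks (58.6%) were wider than their exon, and the median share of a peak that was exonic was 56.2%. The peak was wholly exonic at 53 (24.7%). The summit lay a median of 56 bp from the nearest splice site, and 47 of 211 lay within 25 bp of one. In such cases the fragments cover exon and intron alike, as in Gtf2i above.

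In 3′ UTRs 176 of 189 summits lay in the last exon of the gene, the median exon was 2417 bp long, and 155 peaks (82.0%) were wholly exonic. The summit lay a median of 1026 bp before the end of the transcript. The nearest start site belonged to the host gene for 69.8% of coding exon peaks and 51.9% of 3′ UTR peaks. Another peak was within 10 kb at 59.5% of coding exon peaks and 63.0% of 3′ UTR peaks, beside 61.2% of intron peaks.

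**Figure D4:**
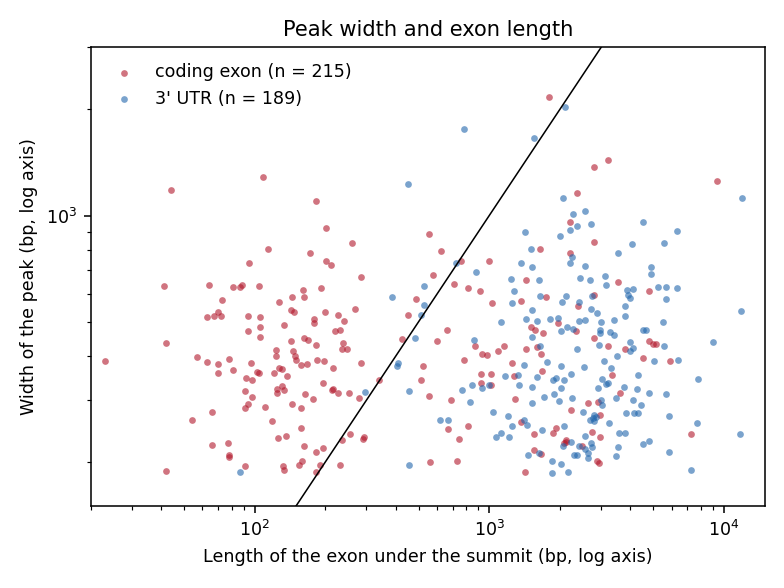
Width of the peak (vertical axis, bp, log scale) against the length of the exon under its summit (horizontal axis, bp, log scale) for the 215 coding exon peaks (red) and 189 3′ UTR peaks (blue), with a line of equality. Above the line the peak is wider than the exon, which holds for 126 coding exon peaks and 10 3′ UTR peaks.

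The Tcf/Lef core was found at 42 of 215 coding exon peaks, a share of 19.5% (95% Wilson interval 14.8 to 25.3). Of all coding positions more than 1 kb from start sites, 3.78% have a core within 100 bp, so the share at peaks was 5.17 times that of the class. In 3′ UTRs it was 26 of 189, or 13.8% (9.56 to 19.4), 3.92 times the 3.51% of all 3′ UTR positions, and in introns 13.4%, 3.59 times 3.74%. The core read backwards (GAAACTA) was at 0 of 215 coding exon peaks, which allows a share of up to 1.40% by a limit of 3 counts and 1.76% by the Wilson interval, and at 5 of 189 3′ UTR peaks (2.65%). Beside these, 1.55% and 2.79% of the positions of the class had it, and both lay inside the Wilson intervals (for 3′ UTRs 1.14 to 6.04).

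Set against introns, the odds of a core were 1.57 times as high in coding exon peaks (95% interval 1.11 to 2.21), which missed the threshold after adjustment (p = 0.0148, adjusted p = 0.0701, two-sided Fisher's exact test). The odds ratio was 1.70 among high-confidence peaks (adjusted p = 0.0401) and 2.28 among those at a fold enrichment of at least 8 (adjusted p = 0.0152), and passed the threshold in both by Fisher's exact test. These 2 adjusted p-values do not cover the choice among several subsets, and the main test missed the threshold. For 3′ UTRs it was 1.03 (0.676 to 1.57, adjusted p = 0.914), and between coding exon and 3′ UTR peaks 1.52 (0.892 to 2.60, adjusted p = 0.298, Fisher's exact tests).

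The share with a core was larger among the stronger coding exon peaks. It was 3 of 34 (8.82%) under a fold enrichment of 4, 10 of 77 (13%) from 4 to 6, 15 of 58 (25.9%) from 6 to 10, 9 of 32 (28.1%) from 10 to 20 and 5 of 14 (35.7%) at 20 or more. In introns the same ranges gave 10.2%, 11.6%, 11.9%, 16.3% and 22.7%. Coding exon peaks with a core had a median fold enrichment of 8.34 (95% interval 6.39 to 9.63) and those without 5.45 (5.14 to 6.08), intervals that do not overlap. The same held in introns, with 7.63 (7.03 to 8.41) and 6.39 (6.23 to 6.39). In 3′ UTRs the medians were 6.70 (4.83 to 11.4) and 5.92 (5.30 to 6.39), whose intervals overlap.

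The distance from the summit to the middle base of the core varied. The nearest core was a median of 15 bp from the summit in coding exons, with 26 of 42 (61.9%) within 25 bp, and 25 bp from it in 3′ UTRs, with 13 of 26 (50%) within 25 bp, so that many cores lay farther out. At 40 of the 42 coding exon peaks and at 26 of the 26 3′ UTR peaks the core was itself inside the same part of the exon. Beyond Gtf2i and Wdr63, the coding exon peaks of largest fold enrichment with a core were those of Kidins220, a scaffold of neurotrophin receptors (150 WT fragments, fold enrichment 23.5, middle of the core 1 bp from the summit), Ypel3 (146, 22.9, 10 bp) and Tab1, which binds the kinase TAK1 (147, 21.1, 4 bp). These 3 summits lie within 10 bp of the core, unlike some of those that follow.

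The next were Dnahc17, an axonemal dynein heavy chain (120 fragments, fold enrichment 18.9, core 31 bp from the summit), and Gnat1, the rod transducin alpha subunit (108, 17.0, 88 bp). Zfp219, a zinc finger gene, had more fragments than either, 146, but over a control level of 8.02 (fold enrichment 16.3, core 26 bp from the summit). Ms4a6b, a membrane protein of the MS4A family (103, 16.2, 9 bp), and Eif2a, a translation initiation factor (95, 15, 77 bp), completed the 10.

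In 3′ UTRs the middle of the core lay 2 bp from the summit in Cst7, which encodes cystatin F, an inhibitor of the proteases of cytotoxic granules (159 WT fragments, fold enrichment 24.9). The UTR of 1110038D17Rik (123, 19.3) held 2 copies and overlapped the gene Upb1. Athl1 (110, 17.3) and Ube2d3, a ubiquitin-conjugating enzyme (91, 14.3), followed. Further 3′ UTR peaks with a core were those of Rab33b (79, 12.5), a Golgi GTPase, Snn (75, 11.8), Xpo7 (72, 11.4), a nuclear transport receptor, B230120H23Rik (66, 10.4) and 5430435G22Rik (49, 7.79). Of the 3′ UTR peaks named here, that of Cst7 had the largest fold enrichment.

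A core inside a coding exon can be read in 6 ways, on either strand and at any codon position. The 40 coding exon peaks with a core in coding sequence held 42 such cores, 19 on the sense strand and 23 on the antisense strand of the gene. Of the 42, 15 (35.7%, 95% Wilson interval 23.0 to 50.8) lay on the sense strand with the first base at codon position 1, so that they spell the codons ATC and AAA, as in the Gtf2i, Ypel3 and Gnat1 sequences above. Another 19 (45.2%, 31.2 to 60.1) lay on the antisense strand and spell the codons TTT and GAT in the gene, as in Wdr63, Kidins220 and Tab1. The other placements held 1, 3 and 4 cores, and the sixth, which would put the stop codon TGA in frame, held 0.

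A like count was made over the 5514 cores in coding sequence more than 1 kb from start sites. It used 1 transcript per gene, that of the longest coding sequence, whereas the 42 cores at peaks could lie in any protein-coding transcript. The placements that spell ATC AAA or TTT GAT held 34 of the 42 cores at peaks (81.0%, 66.7 to 90.0) and 3886 of the 5514 (70.5%), a value inside the interval, and the stop codon placement held 0 of the 5514. The reading frames at the peaks were thus within counting error of those in coding sequence at large. Set beside the 5514, the 42 cores within 100 bp of a coding exon summit came to 0.762% (0.564 to 1.03), though not all 42 need be among the 5514. Nearly all cores written in coding sequence thus had no such peak.

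**Figure D5:**
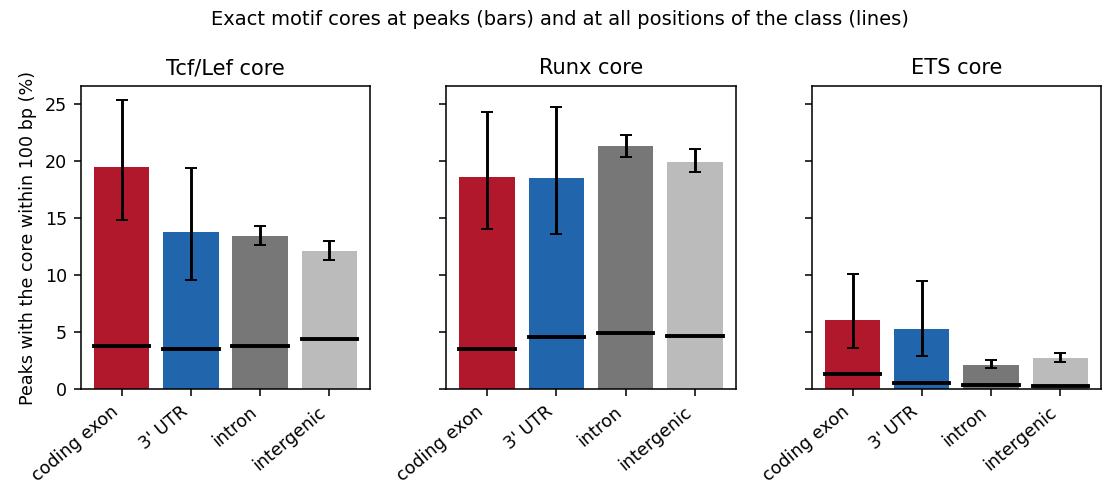
Share of peaks (vertical axis, percent, with 95% Wilson intervals) that have the exact Tcf/Lef, Runx or ETS core within 100 bp of the summit, by the position of the summit, with black lines at the share of all positions of the same class that have one. At coding exon peaks the shares are 19.5%, 18.6% and 6.05%, over class shares of 3.78%, 3.49% and 1.37%.

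Runx and ETS factors are T-cell regulators whose motifs were searched in the same way. The Runx core was at 40 of 215 coding exon peaks (18.6%, 95% Wilson interval 14.0 to 24.3), 5.33 times the class share of 3.49%. In 3′ UTRs it was at 35 of 189 (18.5%, 13.6 to 24.7), 4.02 times 4.61%, and in introns at 21.3%, 4.30 times 4.95%. Neither exon class differed from introns past the threshold (odds ratios 0.844, 95% interval 0.595 to 1.2, and 0.839, 0.578 to 1.22, Fisher's exact tests, adjusted p = 0.609 for both). By fold enrichment the share in coding exons showed no steady order: from 10 to 20 it was 4 of 32 (12.5%) against 25.4% of intron peaks, and at 20 or more 7 of 14 against 29.5% of intron peaks and 4 of 14 in 3′ UTRs.

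The ETS core was at 13 of 215 coding exon peaks (6.05%, 3.57 to 10.1) against 2.14% of intron peaks, an odds ratio of 2.94 (95% interval 1.64 to 5.28, Fisher's exact test, adjusted p = 0.0108). Coding sequence itself holds this core more often, at 1.37% of positions against 0.386% in introns. Relative to its class, the share at coding exon peaks was 4.42 times (2.61 to 7.36) and that at intron peaks 5.54 times (4.69 to 6.55). Among high-confidence peaks the odds ratio was 2.47 and missed the threshold (Fisher's exact test, adjusted p = 0.0701). In 3′ UTRs the core was at 10 of 189 (5.29%), with an odds ratio of 2.55 (1.32 to 4.94, adjusted p = 0.0599, Fisher's exact test), and 9.17 times the class share of 0.577% (5.02 to 16.4).

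The 3′ UTR peaks with an ETS core included Vamp1, Cd3d, Lpxn and Xpo7, which are among the genes described above. The ETS core of Xpo7 and its Tcf/Lef core both have their middle base within 17 bp of the summit. A Tcf/Lef and a Runx core were together within 100 bp at 5 coding exon peaks (2.33%) and 6 3′ UTR peaks (3.17%), beside 2.14% of intron peaks. In the coding sequence of Ypel3 they stand next to each other without overlapping. The window below is shown for this pair, with the Runx core (AACCACA, antisense) in capitals and the Tcf/Lef core after it in lower case:
Ypel3, chr7:133923586-133923615, plus strand: atcattgaactcAACCACAtgatcaaagac

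At least 1 of the 3 cores was within 100 bp at 89 coding exon peaks (41.4%, 35.0 to 48.1), 62 3′ UTR peaks (32.8%, 26.5 to 39.8) and 34.2% of intron peaks. The other 126 coding exon peaks and 127 3′ UTR peaks, among them Sult2b1, Col6a6, Mical3 and Bysl, had none of these exact letters in that window, which leaves weaker matches unexamined.

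The genes with exonic peaks were set against lists of genes of T-cell biology, beside 1.79% of all 21281 protein-coding gene names with an exonic peak. Genes of the T-cell receptor complex and its signalling with an exonic peak included Cd3d, described above, Ptpn22, a phosphatase that restrains receptor signalling, with 79 WT fragments at exon 13 (fold enrichment 12.5), and Plcg1, phospholipase C gamma 1, with 27 at exon 4 (4.36). The peak at exon 4 of Plcg1 overlapped the gene Zhx3, and all 3 passed the fold minimum.

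Of 23 annotated cytokine, chemokine and homing receptors, 1 had exonic peaks, Il6ra, the alpha chain of the interleukin 6 receptor, with 124 WT fragments at the stronger (fold enrichment 19.5) and 21 at the weaker (3.43), both in its 3′ UTR. Of 17 genes of other blood lineages, 1 did, the myeloid integrin gene Itgam, with 51 fragments at exon 7 (fold enrichment 8.10) and the middle of a Tcf/Lef core 15 bp from the summit. No exonic peak was found in the 26 T-cell transcription factor genes, the 16 cytotoxic and effector genes or the 22 genes of chromatin regulators and corepressors. These counts describe exons more than 1 kb from start sites and not the binding at introns or promoters of the same genes.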

How the data were processed

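Tcf1 ChIP-seq was measured in 1 WT and 1 Tcf1-deficient library of naïve CD8+ T cells. Reads were checked by the authors with FastQC, aligned to mm9 with Bowtie2 (version 2.2.5), and given to MACS2 (version 2.1.1) for peak calling with the Tcf1-deficient library as control, tools that the submitters' processing notes also name. Per the file headers, 36938606 WT and 27625250 control fragments were kept after removal of duplicates. Of the deposited columns, the pileup is a signal, the coverage of WT fragments at the summit, the fold enrichment is a ratio with a pseudocount of 1, and p and q are given as −log10 of the p-value and q-value. All columns of values were used.

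The level of the control was obtained as (pileup + 1)/fold enrichment − 1. Summits were placed on NCBIM37 (mm9) with the GENCODE vM1 annotation, in the order coding exon, 3′ UTR, 5′ UTR, intron, and a start site was that of any transcript. Exon number and length were taken from the transcript with the longest coding sequence among those that place the summit in its class. Cores of 7 bases were searched as exact letters on both strands. A position-weight matrix was not used here. Shares were given with Wilson intervals, counts with exact Poisson intervals and medians with order-statistic intervals, at 95%. Classes were compared by two-sided Fisher's exact tests or exact binomial tests, adjusted by Benjamini-Hochberg over 19 tests, with a threshold of 0.05. The functions were tested on simulated data. Python 3.11.15, numpy 2.4.6, pandas 2.3.3, scipy 1.17.1 and matplotlib 3.10.9 were used.

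The peaks, motifs and gene lists were chosen with earlier results of these data known. The text names the 10 peaks of largest fold enrichment in coding exons and in 3′ UTRs, the 10 of each with a Tcf/Lef core, the 3 leading 5′ UTR peaks, the 5 genes with the most exonic peaks, up to 4 peaks per gene list, the 3 with the largest control level, and those at the limits. The peak at exon 4 of Plcg1 falls outside this rule and was named after its value was seen. On chromosome X, 8 further exonic peaks were left out. The values of 1 gene, and the count over the list of T-cell receptor genes, are not reported here.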

Additional observations from a re-analysis of the deposited data

How the results depend on the processing

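With 1 library per genotype, no library could be left out. No paired analysis was possible because the labels give no replicate numbers. Over 22 results, 83 alternatives were run, each adjusted in place of its main test among the 19, with no adjustment over the 83. Of these alternatives, 55 kept the direction and the side of the threshold or stayed near the main value. A count of peaks passed as near when within a set factor of 413, and a ratio to the class when inside the main interval. Of the others, 16 turned a direction, 6 moved a value, 5 gained a call and 1 lost one, and the causes were not tested. None of the 16 passed the threshold after adjustment in either direction; for 1, the density in 3′ UTRs at 5 to 20 kb, the interval (0.593 to 0.955) lay under 1 (p = 0.0171, adjusted p = 0.0649, exact binomial test). For density against introns, coding exons gave 0.965 at a fold enrichment of at least 8, 0.943 within 5 kb of a start site and 0.830 at 5 to 20 kb, and 3′ UTRs gave 0.858, 0.875 and 0.758. For fold enrichment of coding exon against 3′ UTR peaks, the odds ratio was 1.19 for high-confidence peaks, 1.02 with pileup, 1.03 without starts within 2.5 kb, 1.03 without exons that are introns elsewhere and 1.09 with the control level at its floor. The odds ratio for high confidence of exonic against intron peaks was 1.06 without starts within 2.5 kb. For the Tcf/Lef core at 3′ UTR against intron peaks it was 0.977 for high-confidence peaks, 0.791 within 25 bp, 0.872 without exons that are introns elsewhere and 0.874 at a fold enrichment of at least 8.

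Calls were gained for the Tcf/Lef core at coding exon against intron peaks in high-confidence peaks (1.70), without starts within 2.5 kb (1.75) and at a fold enrichment of at least 8 (2.28). In high-confidence peaks they were gained for the ETS core at 3′ UTR peaks (2.66) and for the lower fold enrichment of 3′ UTR peaks (0.627), and lost for the ETS core at coding exon peaks (2.47). Relative to the class, the Tcf/Lef core at coding exon peaks stood at 8.34 times within 50 bp, 12.1 times within 25 bp and 8.46 times at a fold enrichment of at least 8, and at 3′ UTR peaks at 7.02 and 7.07 times in the 2 smaller windows. A fold enrichment of at least 8 left 136 exonic peaks. Leaving out peaks with more bases outside exons than inside left 317, of which 122 were in coding exons and 188 in 3′ UTRs. Low pileups limit single peaks, since a count near the fold minimum has a Poisson error of several fragments.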
